A study of Homo sapiens with 6 samples.

Results

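The receptors for lysophosphatidic acid (LPA) and sphingosine 1-phosphate (S1P) were followed in NCRM-1, a human induced pluripotent stem cell line, grown as aggregates in vertical wheel bioreactors. Their members are the 10 genes whose Ensembl identifiers carry the GENCODE 44 names LPAR1 to LPAR6, S1PR1, S1PR2, S1PR3 and S1PR5, out of 19977 genes listed for each library. The family was chosen by the CPM of LPAR6 in this same contrast, where it had the higher level with the additives. That difference is therefore given as a description without a test, and nothing is read from how many members were called in the same comparison.

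Bulk polyadenylated RNA was sequenced from 3 samples grown for 4 days in E8 with 10 mg/ml polyethylene glycol plus heparin sodium salt at 0.1 µg/ml (PEG and HS) and from 3 samples grown in E8 alone (E8 control). E8 is a defined pluripotency medium without serum or albumin. All samples came from wild type NCRM-1 cells dissociated to single cells and seeded with a kinase inhibitor that aids the survival of single cells, and 50% of the medium was exchanged on day 2. The comparison asked whether the 2 additives, chosen to hold aggregates apart, left the pluripotent state as it was in E8. The labels name the treatment of each library, but their protocol text describes PEG and heparin for all 6 libraries, and the treatment field was followed. They also read as if each medium had 1 bioreactor, so its 3 samples may share a vessel. Vessel and medium then cannot be told apart, and each p-value measures only the spread between these samples.

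Libraries held 26991279 to 36185138 counts on genes. The 8 pluripotent markers summed to 7043 to 7195 CPM (a gene's counts scaled to a common library size, by the total and the TMM factor of each library) in PEG and HS and 7428 to 7524 CPM in E8 control, so the cells carried the markers of their label. Within that list 3 markers were called higher, among them NANOG by 1.47-fold, and 4 lower, among them SOX2 by 1.51-fold. Of the 8 neuroectoderm markers 7 were called lower in PEG and HS, and the list summed to 44.96 to 49.8 CPM there against 162 to 168 CPM in E8 control. The 5 fibroblast markers summed to 165 to 174 CPM against 228 to 254 CPM, with 4 called lower, while endothelial markers (15.0 to 17.7 against 15.2 to 15.9 CPM), mesoderm and endoderm markers (3.96 to 4.42 against 4.43 to 4.67 CPM) and blood cell markers (0.886 to 1.06 against 0.445 to 0.804 CPM) were low in both media. The leukocyte marker PTPRC had 8 counts and the endoderm marker SOX17 had 2 counts over the 6 libraries. Of the 6 endothelial markers ERG was called higher (11.7 against 7.20 CPM) and VWF and TEK lower (2.77-fold and 1.85-fold), so that their sum hides opposite changes, and PECAM1 had 18 counts in all. In bulk RNA, fewer cells of a type and less transcript per cell cannot be told apart.

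LPA and S1P are small signalling lipids that act outside the cell through G protein-coupled receptors. LPAR1, LPAR2, LPAR3 and the S1P receptors belong to one sequence family, historically called EDG receptors, whereas LPAR4, LPAR5 and LPAR6 are more closely related to P2Y nucleotide receptors. Through GNA12 and GNA13 such receptors promote actin filaments, which frees the transcription cofactors of SRF and the cofactor YAP, and through other alpha subunits they act on phospholipase C beta and on cyclic AMP. In pluripotent cells both lipids are known to act on survival and on YAP.

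The sequences before the start sites of 3 members are shown (LPAR6, by which the family was chosen, and LPAR3 and LPAR2, which were called) so that their letters can be compared. Each holds the 250 bases before the RefSeq start (GRCh38.p14), read 5′ to 3′ on the strand of the gene, and capitals mark matches to the motifs searched on both strands: TATA box (TATAAA), GC box (GGGCGG), TEAD (GGAATG), AP-1 (TGANTCA), CRE (TGACGTCA), octamer (ATGCAAAT) and the CArG box of SRF.
LPAR6 (chr13:48413114-48413363, minus strand): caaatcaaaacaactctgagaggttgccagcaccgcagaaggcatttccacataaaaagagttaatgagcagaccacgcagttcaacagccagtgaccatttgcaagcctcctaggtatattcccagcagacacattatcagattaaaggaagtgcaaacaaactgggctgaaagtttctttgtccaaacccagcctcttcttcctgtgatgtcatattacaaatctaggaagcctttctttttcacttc
LPAR3 (chr1:84893207-84893456, minus strand): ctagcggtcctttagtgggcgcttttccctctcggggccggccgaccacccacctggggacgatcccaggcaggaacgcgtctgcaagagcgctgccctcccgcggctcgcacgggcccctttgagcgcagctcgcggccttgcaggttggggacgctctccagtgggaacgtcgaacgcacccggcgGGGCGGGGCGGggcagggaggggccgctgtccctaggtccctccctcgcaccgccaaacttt
LPAR2 (chr19:19628221-19628470, minus strand): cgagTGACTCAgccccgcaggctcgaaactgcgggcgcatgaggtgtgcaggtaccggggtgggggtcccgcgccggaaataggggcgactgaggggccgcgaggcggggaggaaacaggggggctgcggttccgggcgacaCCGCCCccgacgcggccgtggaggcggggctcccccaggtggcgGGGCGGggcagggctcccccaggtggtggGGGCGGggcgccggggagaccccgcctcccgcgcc

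The window of LPAR6 held none of these motifs, 42.8% G and C, and 2 CG pairs, and 14.7% of the 35116 RefSeq promoters hold fewer CG pairs. Its start, base 48413113, lies inside the annotated gene (48389567 to 48444704, minus strand), and no start nearer the 5′ end of the gene was searched. The window of LPAR3 held 71.2% G and C and 27 CG pairs, with 2 GC boxes that share 1 base and begin 62 and 57 bases before the start. The window of LPAR2 held 78.4% G and C and 30 CG pairs, with 3 GC boxes and an AP-1 match that begins 246 bases before the start. The LPAR2 start, base 19628220, also lies inside its annotated gene (19623655 to 19628930, minus strand). A GC box is present in 42.6% of all promoters of this length and an AP-1 match in 6.57%. Over the 17 RefSeq starts of the 10 members, 12 windows held a GC box, 2 a TATA box (LPAR1 and LPAR4), 1 held TEAD matches (LPAR5) and 1 a CRE (S1PR2), while no window held an octamer or a CArG box. These shares stand beside 10.7%, 11.9%, 1.65%, 1.63% and 1.16% of all promoters for the TATA box, TEAD, CRE, octamer and CArG box. The windows with a GC box were of LPAR1, LPAR2, LPAR3, LPAR4, S1PR2, S1PR3 and S1PR5. LPAR1, S1PR3 and S1PR5 entered with more than 1 start, LPAR1 with the most, so the windows do not weigh the genes equally. A match describes letters only, and counts per gene do not show which start was used.

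LPAR6 (ENSG00000139679, GRCh38 chromosome 13, 48389567 to 48444704, minus strand), the receptor mutated in hereditary woolly hair, was counted 254, 169 and 191 times in the PEG and HS libraries and 77, 92 and 84 times in those of E8 control. As CPM this was 7.53, 5.98 and 5.64 in PEG and HS and 2.85, 2.83 and 2.33 in E8 control. Every PEG and HS library lay above every E8 control library, and PEG and HS replicate 1 was the highest of its medium. The means were 6.39 ± 1.01 CPM (SD, n = 3) and 2.67 ± 0.298 CPM (SD, n = 3), a 2.40-fold difference (log2 fold change 1.27 with SE 0.14), and without PEG and HS replicate 1 the log2 fold change was 1.13. Ordered by log2 fold change, LPAR6 took place 138 of the 16505 genes with at least 10 counts over the 6 libraries. The 9 annotated transcripts of LPAR6 share 1.07% of their 31-base words with transcripts of other genes.

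LPAR6 lies entirely within RB1, a tumour suppressor gene read from the opposite strand, and the 4350 exon bases of LPAR6 share 0 bases with exons of RB1. The counting step is not stated to use strand, so reads from unspliced RB1 transcript could fall on LPAR6. RB1 had 35.4, 35.4 and 36.4 CPM with PEG and HS, compared with 33.1, 33.9 and 33.6 CPM in E8 control (a log2 fold change of 0.09 with SE 0.041, edgeR adjusted p = 0.123), where every adjusted p is from edgeR's quasi-likelihood fit of the whole table, corrected after Benjamini and Hochberg. For every 1000 RB1 counts there were 213, 169 and 155 LPAR6 counts in PEG and HS and 86.1, 83.5 and 69.4 in E8 control. The amount of unspliced RB1 RNA was not measured, and its part in the LPAR6 counts was not tested.

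**Figure D1:**
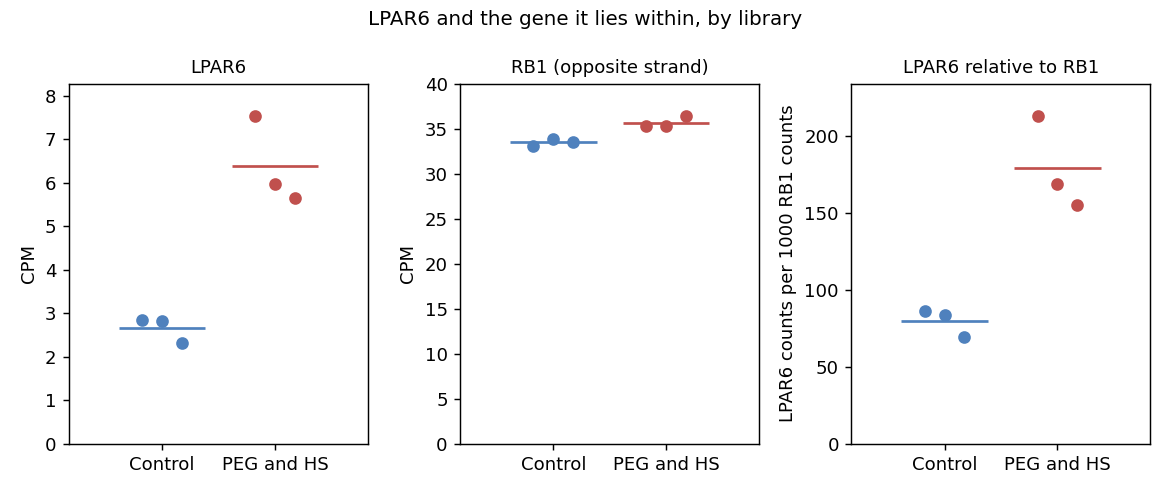
LPAR6 (left, CPM), RB1 (middle, CPM) and LPAR6 counts per 1000 RB1 counts (right) in each library, with Control in blue, PEG and HS in red and a bar at the mean of 3 libraries. LPAR6 was at 5.64 to 7.53 CPM in PEG and HS and at 2.33 to 2.85 CPM in Control, while RB1 was at 35.4 to 36.4 and 33.1 to 33.9 CPM.

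Among the other receptors of the EDG family, LPAR3 (ENSG00000171517, chromosome 1, 84811602 to 84893206), known for its part in embryo implantation, was at 40.0, 37.2 and 39.2 CPM with PEG and HS, compared with 29.1, 26.7 and 27.5 CPM in E8 control. The media did not overlap, and LPAR3 was called higher by 1.40-fold (38.8 ± 1.43 against 27.8 ± 1.23 CPM, log2 fold change 0.49 with SE 0.048, edgeR adjusted p = 2.05e-06). LPAR2 (ENSG00000064547, chromosome 19, 19623655 to 19628930), a receptor with PDZ-binding tail that acts through several G proteins, was at 41.9, 43.5 and 41.6 CPM with PEG and HS, compared with 39.4, 37.2 and 36.6 CPM in E8 control. It was also called higher without overlap, by 1.12-fold (42.3 ± 1.02 against 37.7 ± 1.45 CPM, log2 fold change 0.17 with SE 0.043, edgeR adjusted p = 0.00913). LPAR1 (ENSG00000198121, chromosome 9, 110873263 to 111038470), the first LPA receptor identified, was at 4.72, 3.82 and 4.88 CPM with PEG and HS, compared with 5.52, 5.08 and 5.04 CPM in E8 control. Its libraries did not overlap, with the lower values in PEG and HS, but LPAR1 was not called (log2 fold change -0.21 with SE 0.11, edgeR adjusted p = 0.199), and the 95% interval of the fold ran from 0.730 to 1.02.

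Of the P2Y-related receptors, LPAR4 (ENSG00000147145, X chromosome, 78747709 to 78758714), which is known to raise cyclic AMP, was at 11.6, 10.5 and 9.99 CPM with PEG and HS, compared with 12.1, 10.8 and 11.7 CPM in E8 control. The media overlapped, and the 95% interval of the fold was 0.830 to 1.04 (log2 fold change -0.11 with SE 0.075, edgeR adjusted p = 0.335). LPAR5 (ENSG00000184574, chromosome 12, 6618835 to 6635960) was counted 9, 11 and 11 times with PEG and HS and 15, 15 and 21 times in E8 control, the fewest of the members. In CPM the media did not overlap (0.267, 0.389 and 0.325 against 0.556, 0.462 and 0.582), yet so few counts gave a wide 95% interval of the fold, 0.353 to 1.06, and no call (edgeR adjusted p = 0.192).

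S1PR1 (ENSG00000170989, chromosome 1, 101236865 to 101243713), the receptor that guides lymphocyte exit and vessel maturation, was at 3.74, 3.86 and 4.28 CPM with PEG and HS, compared with 3.30, 2.83 and 3.24 CPM in E8 control. No library of one medium overlapped the other, but S1PR1 was not called (log2 fold change 0.34 with SE 0.13, edgeR adjusted p = 0.0586), with a 95% interval of the fold from 1.05 to 1.53 before adjustment for the number of genes. In other settings the edgeR adjusted p of S1PR1 ran from 0.052 with library size alone to 0.196 without E8 control replicate 2. DESeq2 gave it an adjusted p of 0.172. S1PR2 (ENSG00000267534, chromosome 19, 10221433 to 10231331), which couples to GNA12 and GNA13, was at 13.7, 14.7 and 14.2 CPM with PEG and HS, compared with 14.01, 15.1 and 13.6 CPM in E8 control. The media overlapped (log2 fold change -0.0054 with SE 0.064, edgeR adjusted p = 0.967), and the interval of the fold, 0.906 to 1.095, lay below the fold of LPAR3. That interval measures only the spread between these samples, which may share a vessel. S1PR2 overlaps DNMT1 on the same strand, shares 83 exon bases (2.28%) with it and 12.4% of its 31-base words with transcripts of other genes, so a part of its counts is uncertain. DNMT1 itself, the maintenance DNA methyltransferase, was at 302 ± 2.81 and 296 ± 2.74 CPM (edgeR adjusted p = 0.489).

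S1PR3 (ENSG00000213694, chromosome 9, 88990863 to 89005155), a receptor of smooth muscle and endothelium, was at 9.52, 9.06 and 9.69 CPM with PEG and HS, compared with 8.86, 9.08 and 9.03 CPM in E8 control (edgeR adjusted p = 0.529, interval of the fold 0.945 to 1.16). S1PR5 (ENSG00000180739, chromosome 19, 10512742 to 10517931), a receptor of natural killer cells and oligodendrocytes, was at 1.69, 2.02 and 2.04 CPM with PEG and HS, compared with 1.71, 1.63 and 1.995 CPM in E8 control (edgeR adjusted p = 0.736, interval of the fold 0.822 to 1.40). Both receptors overlapped between media.

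**Figure D2:**
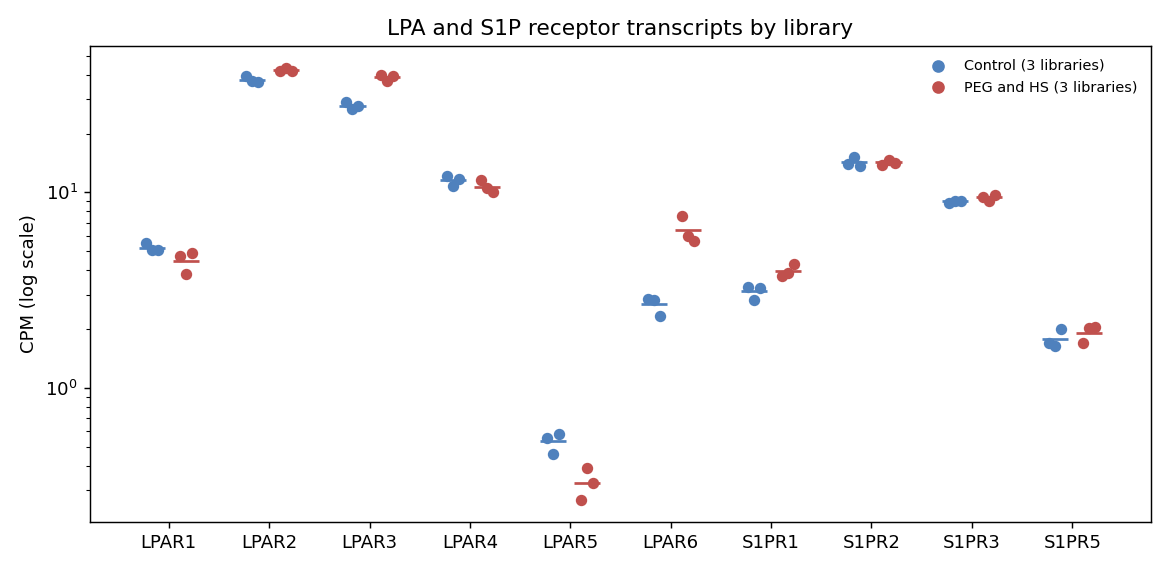
CPM of the 10 receptors on a log axis, with 1 point for each library (Control in blue, PEG and HS in red) and a bar at the mean of 3 libraries. The libraries of the media were apart in LPAR1, LPAR2, LPAR3, LPAR5, LPAR6 and S1PR1 and overlapped in the 4 others (39.3% of all genes tested did not overlap).

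All 10 members had at least 10 counts over the 6 libraries, from 82 for LPAR5 to 7642 for LPAR2, and none was left out. Leaving aside LPAR6, 2 of the other 9 members (LPAR3 and LPAR2) were called higher in PEG and HS and 0 lower, where 25.3% of the 16505 genes tested were called, 12.2% higher and 13.1% lower. In 5 of these 9 members no library of one medium overlapped those of the other, 3 higher and 2 lower, against 39.3% of all genes tested, 19.5% higher and 19.8% lower. The median log2 fold change was 0.085 over the 10 members and 0.069 without LPAR6, beside 0.0031 over all genes tested.

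**Figure D3:**
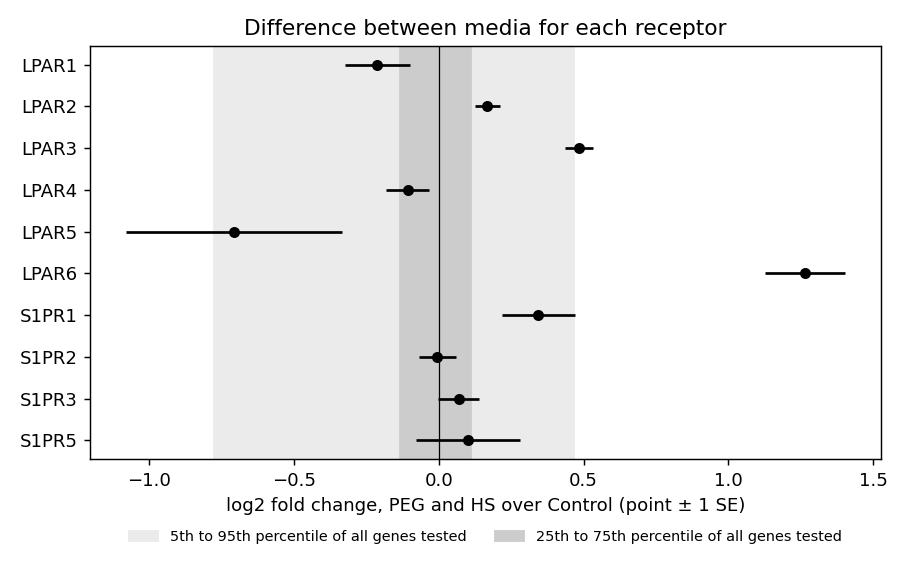
Log2 fold change of PEG and HS over Control for each receptor, as a point with a line of 1 SE to each side, on bands that hold the middle 50% and 90% of the 16505 genes tested. LPAR6 (1.27) and LPAR3 (0.49) lay above the 95th percentile of all genes (0.47), and the other 8 lay between the 5th (-0.78) and the 95th.

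To compare levels between receptors, CPM were divided by the length of all annotated exons in kilobases. In E8 control LPAR2 had the highest level (12.7 ± 0.487 CPM per kb, SD, n = 3), followed by LPAR3 (7.86 ± 0.348), S1PR2 (3.92 ± 0.216), LPAR4 (2.44 ± 0.138) and LPAR1 (1.26 ± 0.0646 CPM per kb), each apart from the next in all libraries. S1PR3, S1PR5, LPAR6 and S1PR1 followed at 0.656, 0.634, 0.614 and 0.598 CPM per kb, and neighbours among these 4 overlapped. LPAR5 was the lowest at 0.192 ± 0.0228 CPM per kb. By this measure LPAR2 stood above 79.7%, LPAR3 above 69.0%, LPAR6 above 25.3% and LPAR5 above 15.7% of 16473 tested genes with annotated exons. In PEG and HS the first 4 places were the same, and LPAR6 held the fifth place with 1.47 ± 0.232 CPM per kb, apart from LPAR4 above it (2.26 ± 0.1698) and LPAR1 below it (1.08 ± 0.137 CPM per kb). The longest transcript of LPAR6 has 3004 bases against 4350 for all exons, and that of LPAR4 has 4454 against 4733. The order in PEG and HS was not repeated with the longest transcripts, so that LPAR6 was apart from LPAR4 holds for the length of all exons only.

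Summed over the 6 LPA receptors, the level was 30.8, 29.8 and 29.8 CPM per kb in PEG and HS and 26.2, 24.4 and 24.5 CPM per kb in E8 control, without overlap, as in 39.3% of all genes tested. This sum includes LPAR6, by which the family was chosen, and is a description only. Of that sum LPAR2 made up 47.2% ± 1.68 in PEG and HS and 50.6% ± 0.561 in E8 control, and LPAR3 36.4% ± 0.984 and 31.4% ± 0.389 (SD, n = 3). LPAR6 was a small part of it in both media, 4.86% ± 0.665 and 2.45% ± 0.247. The 4 S1P receptors summed to 5.78, 6.16 and 6.16 CPM per kb in PEG and HS and 5.73, 5.94 and 5.73 CPM per kb in E8 control, with overlap, and S1PR2 made up 64.7% ± 1.18 and 67.4% ± 2.36 of that sum. Such shares depend on the length used. S1PR2 has 3643 bases by all exons and by the longest transcript, but S1PR3 has 13702 and 8505, and S1PR1 5223 and 2778. Shares by the longest transcript were not computed.

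**Figure D4:**
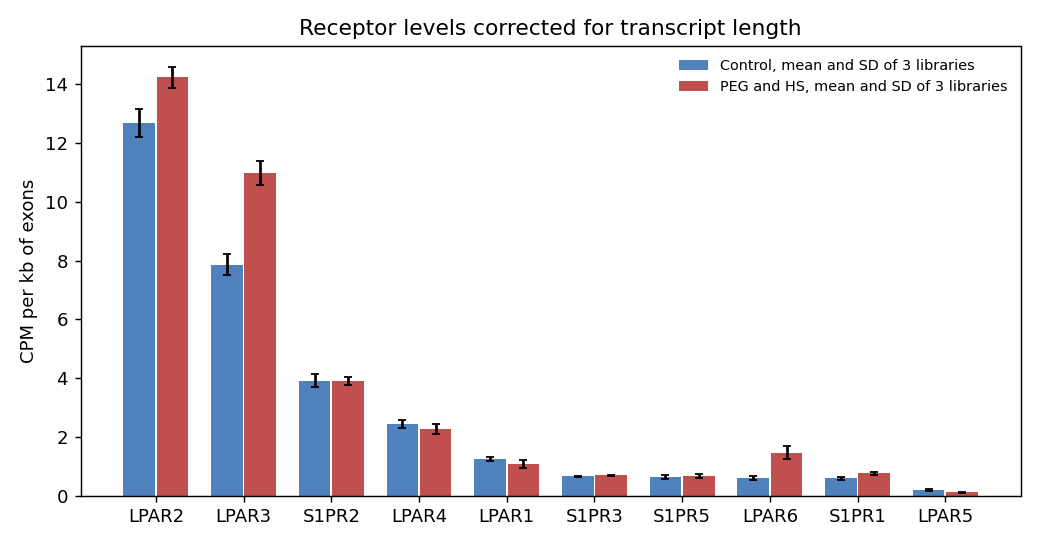
CPM per kilobase of exons for each receptor, with bars at the mean of 3 libraries and lines of 1 SD (Control in blue, PEG and HS in red), in the order of the Control means. LPAR2 and LPAR3 stood highest in both media, and LPAR6 was at 1.47 CPM per kb in PEG and HS and 0.614 CPM per kb in Control.

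Over the 6 libraries, the genes whose log2 CPM followed LPAR6 most closely, among 13556 genes with a mean of at least 1 CPM, were CLCC1 (Pearson's r 0.998), EFEMP1 (0.996), RIN1 (0.994), RAP1GAP2 (0.994) and RAI1 (0.994). These r rest on 6 points in 2 groups and on the high value of PEG and HS replicate 1, and are given as a description. The differences of these genes between media were smaller than that of LPAR6, from a log2 fold change of 0.18 in RAP1GAP2 to 0.45 in EFEMP1, a matrix protein of the fibulin family at 35.0 ± 1.07 and 25.7 ± 1.07 CPM.

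The enzymes that make and remove LPA moved in both directions, with 2 of 8 tested genes called higher and 2 lower, where 12.2% of all genes tested were called higher and 13.1% lower. PLPP1 and PLPP3, membrane phosphatases that remove the phosphate of LPA and S1P outside the cell, fell most. PLPP1 was at 25.3, 25.2 and 26.7 CPM with PEG and HS, compared with 55.9, 58.3 and 63.8 CPM in E8 control, 2.31-fold lower (log2 fold change -1.21 with SE 0.052, edgeR adjusted p = 1.41e-10). PLPP3 was at 36.4, 37.8 and 38.1 against 58.3, 58.4 and 56.8 CPM, 1.54-fold lower (log2 fold change -0.63 with SE 0.038, edgeR adjusted p = 7.32e-09). In neither phosphatase did the media overlap. PLPP2, the third enzyme of this kind, was at 31.2 ± 0.567 and 29.3 ± 0.538 CPM and was not called (edgeR adjusted p = 0.149).

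AGK, a mitochondrial kinase that can form LPA, rose by 1.13-fold (edgeR adjusted p = 0.00406), and ACP6, a mitochondrial phosphatase of LPA, by 1.17-fold (19.3 ± 0.953 against 16.5 ± 1.89 CPM). The call of ACP6 (edgeR adjusted p = 0.0362) was lost in 5 of 12 other settings, with an adjusted p of 0.163 without E8 control replicate 2. ENPP2, or autotaxin, the secreted enzyme that makes most extracellular LPA, was at 6.29, 7.36 and 7.51 CPM with PEG and HS, compared with 5.89, 6.16 and 6.07 CPM in E8 control and was not called (edgeR adjusted p = 0.098). LIPH, the phospholipase known to supply LPA to LPAR6 in hair follicles, was counted 125 times in all and was not called (edgeR adjusted p = 0.582). LIPI had 31 counts and an uncalled log2 fold change of 1.23 (SE 0.66), and PLA1A, with 1 count, was not tested.

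Of the 13 tested genes of S1P metabolism and export, 1 was called higher and 2 lower, beside 12.2% and 13.1% of all genes tested. Both sphingosine kinases, which make S1P, fell. SPHK1 was at 1.39, 1.24 and 1.42 CPM with PEG and HS, compared with 2.08, 2.31 and 2.44 CPM in E8 control, 1.68-fold lower (log2 fold change -0.75 with SE 0.18, edgeR adjusted p = 0.00556). SPHK2, the more abundant kinase in CPM, was at 51.2, 52.9 and 51.7 against 65.2, 64.3 and 63.7 CPM, 1.24-fold lower (edgeR adjusted p = 6.26e-06). ASAH1, the lysosomal ceramidase that releases sphingosine, rose by 1.12-fold (58.7 ± 1.68 against 52.3 ± 1.14 CPM, edgeR adjusted p = 0.00349). SGPL1, the lyase that ends S1P signalling, was at 91.6 ± 2.26 and 90.1 ± 1.39 CPM and was not called (edgeR adjusted p = 0.615), nor was the exporter SPNS2 (1.19, 1.49 and 1.24 against 2.41, 1.66 and 1.496 CPM, edgeR adjusted p = 0.119).

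Other receptors that have been linked to lysophospholipids or related lipids had few counts. Of 8 genes, 6 had under 10 counts over the 6 libraries and were not tested, among them S1PR4, the S1P receptor of blood cells that is not one of the members, with 1 count, and P2RY8 with 9. GPR174 had 0 counts in each library, which allows up to 3 counts or 0.0831 to 0.111 CPM, for counting error only. GPR132 and GPR4 were tested and not called (edgeR adjusted p = 0.417 and 0.769).

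Below the receptors, 2 of the 12 genes of G protein alpha and phospholipase C beta subunits were called higher and 2 lower, beside the same 12.2% and 13.1% of all genes. GNA12, whose protein links LPA and S1P receptors to the actin cytoskeleton, rose by 1.21-fold (161, 158 and 169 against 135, 136 and 134 CPM, edgeR adjusted p = 1.09e-05), while GNA13 was at 102 ± 2.44 and 103 ± 3.73 CPM (edgeR adjusted p = 0.723). PLCB2, a phospholipase C found mainly in blood cells, rose by 1.44-fold (11.9 ± 0.266 against 8.26 ± 0.550 CPM, edgeR adjusted p = 6.02e-05). GNAI2, an inhibitory alpha subunit used by most of these receptors, fell by 0.16 on the log2 scale (edgeR adjusted p = 0.000476), and GNAS, the stimulatory subunit, by 0.092 (edgeR adjusted p = 0.0128), the latter with an adjusted p of 0.0549 without E8 control replicate 1.

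Among receptor kinases, arrestins and RGS proteins, which end receptor signals, 2 of 11 rose and 2 fell, where 25.3% of all genes tested were called in either direction. ARRB1, an arrestin, rose by 1.49-fold (42.4, 42.1 and 44.9 against 27.8, 31.6 and 27.4 CPM, edgeR adjusted p = 1.27e-06), and its relative ARRB2 was not called (59.9 ± 1.92 and 62.4 ± 3.04 CPM, edgeR adjusted p = 0.342). RGS5, a regulator that shortens the signal of GNAI and GNAQ subunits and is known from pericytes, fell from 8.38, 7.42 and 9.26 CPM in E8 control to 3.44, 2.65 and 3.16 CPM in PEG and HS, 2.69-fold lower (log2 fold change -1.43 with SE 0.12, edgeR adjusted p = 2.71e-07). RGS16 rose by 1.32-fold (edgeR adjusted p = 0.00149). RGS2 fell by 0.22 on the log2 scale (edgeR adjusted p = 0.0244), a call lost in 4 of 12 other settings, among them leaving out PEG and HS replicate 1 (adjusted p = 0.118), E8 control replicate 1 (0.0517) or E8 control replicate 3 (0.0853).

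The response genes of SRF and YAP, which LPA and S1P are known to raise, all had lower means in PEG and HS, and 11 of 12 were called lower, where 13.1% of all genes tested were called lower. Their median log2 fold change was -0.68 beside 0.0031 over all genes tested. The list was chosen with earlier results of these data known, so its comparison with all genes is a description only. The count called was 9 without PEG and HS replicate 1, without E8 control replicate 1 or without E8 control replicate 2. TPM1, a tropomyosin of actin filaments, fell from 238, 246 and 245 CPM in E8 control to 96.3, 92.9 and 96.0 CPM in PEG and HS, 2.55-fold lower (log2 fold change -1.35 with SE 0.029, edgeR adjusted p = 2.08e-13). CCN2, a secreted matrix protein and YAP target, fell from 25.9, 28.9 and 21.8 to 12.5, 14.4 and 14.6 CPM, 1.85-fold lower (edgeR adjusted p = 3.34e-06). TAGLN and MYL9, an actin-binding protein and a myosin light chain of contractile cells, fell by 0.87 and 0.85 on the log2 scale (edgeR adjusted p = 2.6e-07 and 5.85e-08). FHL2 was the member not called, at 18.2 ± 0.717 and 20.2 ± 1.20 CPM (edgeR adjusted p = 0.0996). Neuroectoderm and fibroblast markers were lower in the same libraries, COL1A1 among them at 60.1 ± 3.02 against 120 ± 5.23 CPM, and their part in these differences was not tested. Counts per gene hold no measure of the lipids or of receptor protein.

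**Figure D5:**
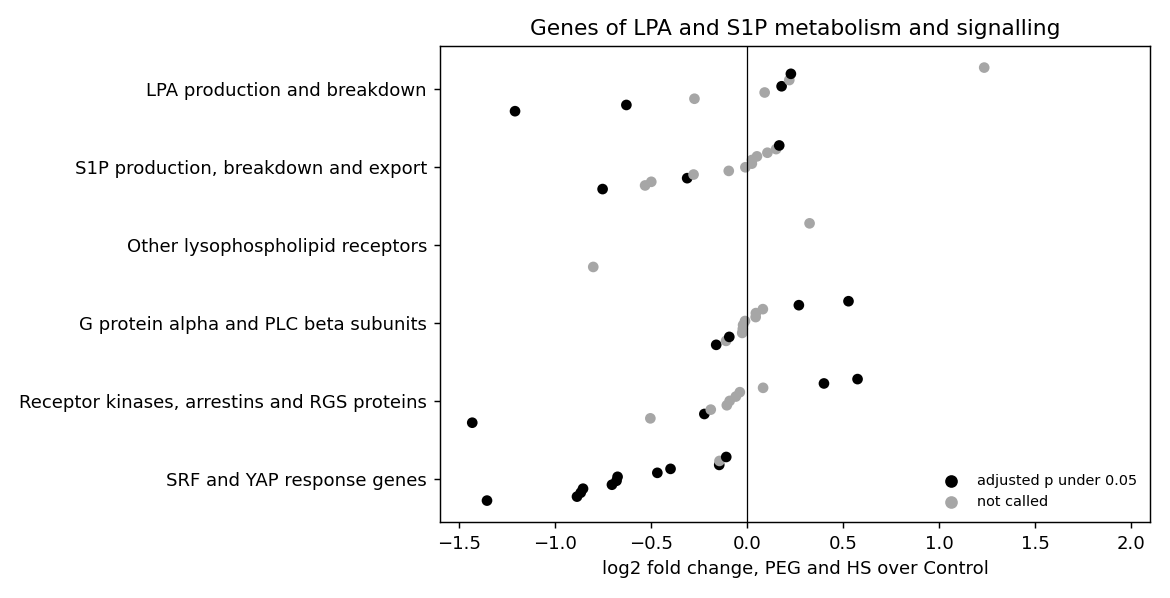
Log2 fold change of PEG and HS over Control for each tested gene of 6 pathway lists, in black where the adjusted p was under 0.05 and in grey elsewhere. The SRF and YAP response genes lay to the left of 0, whereas the other lists held genes on both sides.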

How the data were processed

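RNA was measured in 3 PEG and HS and 3 E8 control samples of NCRM-1 cells. The authors prepared stranded libraries from polyadenylated RNA, trimmed reads with Trim Galore 0.6.7, mapped them to GRCh38 with STAR 2.6.1 in an nf-core pipeline, and deposited raw counts per gene without normalization. The counting tool, its use of strand and its annotation release are not given in the sources used here. Of 19977 identifiers, 19916 matched GENCODE 44.

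Of the genes, those counted at least 10 times in all were scaled by TMM, fitted with edgeR 4.0.16 in R 4.3.3 (quasi-likelihood test, no covariate) and called at a Benjamini-Hochberg adjusted p under 0.05 over 16505 genes. Each SE was taken as the size of the log2 fold change divided by the root of its F value. The alternatives were DESeq2 1.42.0 (the package of the study's methods), 2 other normalizations, 2 other filters, the replicate number as a block and each library left out. Counts of same-medium libraries varied beyond sampling noise (chi-square over degrees of freedom 2.58 to 3.52). The common variation between them in the edgeR fit, beyond counting error, was 3.12%. Neither value shows whether the samples of a medium came from separate vessels, and all 6 were used as separate samples. Scripts were tested on simulated counts. Members and lists were chosen with earlier results of these data known. Named were all members, counted genes overlapping them, up to 4 called genes with the largest change in each pathway list and the 5 genes most like LPAR6. Other genes named, for their role or as marker examples, were chosen after their values were seen. One pathway list is not reported here. Promoter sequences are from RefSeq (GRCh38.p14), which held all 10 members.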

Additional observations from a re-analysis of the deposited data

How the results depend on the processing

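Over the 12 other settings LPAR2 and LPAR3 were called higher in each, and none of the 7 other receptors tested beside LPAR6 was called. Leaving out 1 library in turn gave 9 to 12 called genes among the SRF and YAP response genes. Calls over all genes ranged from 3114 to 4444, with 3398 from DESeq2. The log2 fold change of LPAR6 stayed between 1.13 and 1.35. S1PR2, which was not called in any setting, changed sign with library size alone (0.0037) and without PEG and HS replicate 1 (0.0196) or E8 control replicate 2 (0.0386), over a range of -0.0398 to 0.0386 for the 6 libraries left out in turn. Deviations from the group means gave r of -0.015, 0.028 and 0.060 between same-numbered replicates, and -0.094 to 0.063 between differently numbered ones. With 3 libraries in each medium, these r cannot decide whether the numbers pair the samples. LPAR5 was not tested with the filter at 1 CPM. Calls of ACP6, RGS2 and GNAS were lost in 5, 4 and 1 settings. A replicate block moved the calls over all genes from 4173 to 4444. With the longest transcript as the length, 7 of the 10 receptors kept their place in the order of levels in E8 control, the only medium compared in this way. Depth limits LPAR5, with 82 counts in all.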
